A study of Homo sapiens with 6 samples.

Results

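Ribosome biogenesis and nucleolar genes encode the proteins that transcribe ribosomal RNA and turn it, with ribosomal proteins, into ribosomal subunits. The 59 genes described here were chosen by name from this machinery, though with earlier results of these data known, and all 59 were found among the 57861 genes kept from the deposited tables. They were measured by RNA sequencing in MOLP-8 cells, a human line established from multiple myeloma. LIN28B KO cells carried the lentiCRISPRv2 vector with a guide RNA against LIN28B, and control cells the same vector with a scrambled guide. Each group had 3 libraries, and both groups had grown in RPMI medium with serum and had been selected with puromycin at 1 µg/mL. Whether the KO cells were a pool or 1 clone is not given in the sources used here. The origin of the 3 libraries of each group (separate or shared cultures) is not given either, and p-values therefore measure nothing beyond the spread of these libraries, which may be technical.

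Ribosomes are built largely in the nucleolus. RNA polymerase I makes a long precursor RNA, small nucleolar ribonucleoproteins (snoRNPs) modify it under the guidance of small nucleolar RNAs (snoRNAs), and the small subunit processome and the pre-60S particles fold, cut and export its parts. Rapidly growing cells devote much of their synthesis to this pathway, and MYC, which binds the E-box motif, is a textbook activator of its genes. LIN28B blocks the maturation of let-7, a microRNA family that represses mRNAs with matching sites and counts MYC among its known targets. The design asks which transcripts differ once LIN28B has been targeted.

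LIN28B stood at 8.41, 8.17 and 5.84 FPKM (fragments per kilobase of transcript, scaled to library size) in LIN28B KO libraries 1 to 3, against 23.3, 24.3 and 25.5 FPKM in the controls, so the libraries matched their labels. An exact two-sided permutation test of these 3 against 3 values gave p = 0.1, the smallest p this design allows. A rough estimate of library depth, which takes the deposited bounds as counting error, was 4808210 to 5596934 fragment equivalents in LIN28B KO and 6310855 to 8368315 in control. LIN28B KO library 3 stood apart: MALAT1, a nuclear RNA, was at 892 FPKM there, against 314 and 331 FPKM in KO libraries 1 and 2 and at most 286 FPKM in control. Of the olfactory receptor genes, which are silent in most tissues, 28.7% were above 0 in it, against 11.5% and 14.6% in KO libraries 1 and 2 and 9.46% to 12.3% in control, and 17676 genes reached 1 FPKM, against 15922 and 15932 in KO libraries 1 and 2 and 15356 to 15430 in control. Counts and medians are therefore given with all 6 libraries and for the 5 libraries without it. The value of a single gene is its 5-library log2 fold change unless 6 libraries are named. All 9 plasma cell markers were above 1 FPKM in every library, with summed levels of 2169 to 3212 FPKM in LIN28B KO and 3199 to 3308 FPKM in control. The 6 T and NK cell markers summed to 89.5 to 96.6 FPKM in LIN28B KO and to 57.2 to 66.8 FPKM in control, nearly all of it NCAM1, which myeloma cells can carry. The 4 fibroblast markers summed to 3.55 to 13.7 FPKM in LIN28B KO, highest in library 3, and to 2.70 to 5.81 FPKM in control. Myeloid, erythroid and epithelial markers summed to at most 2.10 FPKM in any library, and CD3D, HBA1 and FCGR3A were listed at 0 throughout. The part of these markers in the results below was not tested.

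The ribosome biogenesis genes were abundant in these myeloma cells, and nearly all of them had a lower mean level in LIN28B KO cells, each by a modest amount. All 59 were above 1 FPKM in every library, so none was lost to the filter on low values. Their control means ran from 8.57 FPKM for NOC3L to 2487 FPKM for NPM1, with a median of 37.0 FPKM, against 16.3 FPKM for all protein-coding genes tested. With all 6 libraries 57 of 59 had a negative log2 fold change (LIN28B KO over control, on the log2(FPKM + 0.5) scale), against 10513 of all 15803 genes tested. Their median was -0.31, against -0.13 for all genes tested. With the 5 libraries 53 of 59 were negative, against 8132 of all 15336 genes tested. The median was then -0.17 for the members and -0.02 for all genes tested.

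None of these single differences passed the test in the 2 comparisons over all genes. With 6 libraries limma called 0 members lower (background 0.0316% of genes called lower) and 0 higher at a Benjamini-Hochberg adjusted p of 0.05, while 17 (28.8%) had an unadjusted p under 0.05 (background 13.7%). With 5 libraries it called 0 lower (background 0.267%) and 0 higher, while 24 (40.7%) had an unadjusted p under 0.05 (background 19.8%), and the lowest adjusted p was 0.0622, for FBL. In 36 of 59 members (61.0%) all 3 LIN28B KO libraries lay below all 3 controls (background 20.1%), and in the same number KO libraries 1 and 2 did (background 22.5%). KO libraries 1 and 2 both lay above all controls for 3 members (background 17%), RRN3, MPHOSPH10 and FTSJ3, and KO library 3 lay below all controls for each of these.

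LIN28B KO library 3 carried the lowest of the 6 values for 52 of 59 members, and all genes had a lower median there as well. The share of all genes with their lowest value in that library was not computed. Below the control mean there were 57 of 59 members and 11745 of all 15803 genes tested. Relative to the control mean, the members' median log2 ratio was -0.19, -0.16 and -0.61 in KO libraries 1 to 3. For all genes tested it was -0.01, -0.01 and -0.35. Most members (39 of 59) averaged between 20 and 100 FPKM in control. The 3998 protein-coding genes at that level had medians closer to the members', at -0.07, -0.07 and -0.51 in the same libraries. Cyclic loess, a scaling that removes a trend of the ratio with level, brought the medians of the members to -0.12, -0.10 and -0.12 and those of all genes to 0.01 in each KO library. After it, 20 of 59 members (33.9%) still had all KO libraries below all controls (background 13.3%). The members' median fold change was then -0.10 in both comparisons, against 0.00 for all genes. Negative fold changes numbered 48 of 59 members with 6 libraries, against 7769 of all 15803 genes. With 5 libraries they numbered 49 of 59, against 7694 of all 15336 genes. In bulk RNA, fewer cells with these transcripts and less of them per cell cannot be told apart, and FPKM values are relative to each library's total.

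**Figure D1:**
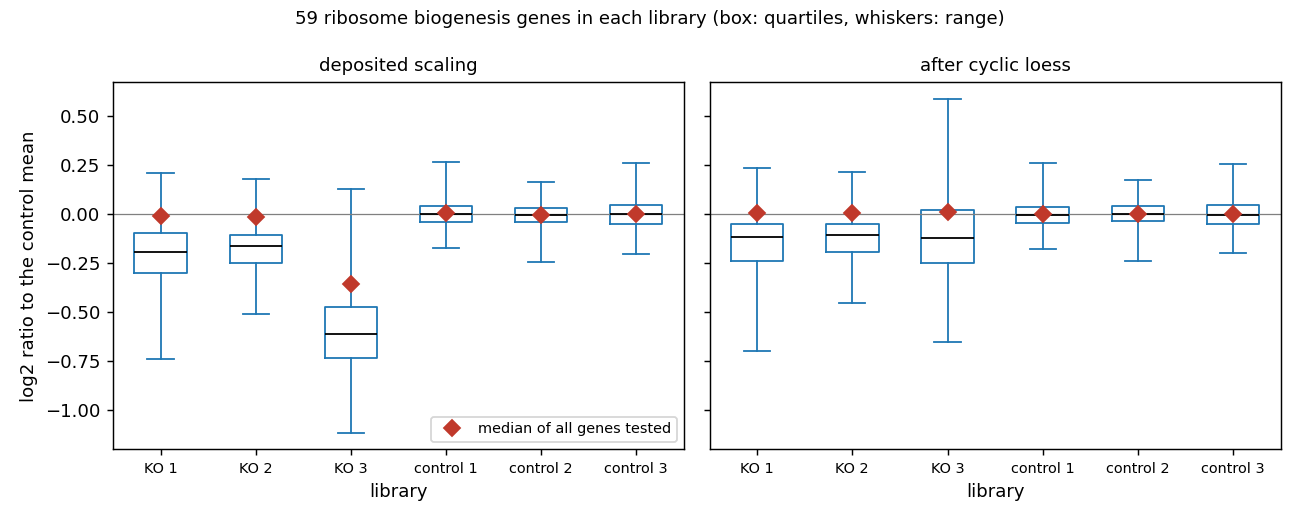
Log2 ratio of the 59 genes to the control mean in each library (box: quartiles; line: median; whiskers: range), as deposited on the left and after cyclic loess on the right, with red diamonds for the median of all 15803 genes tested. The 3 LIN28B KO medians of the members lie at -0.19, -0.16 and -0.61 as deposited and at -0.12, -0.10 and -0.12 after scaling, below the diamonds in each case.

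By role, the 5-library medians were -0.18 for 8 snoRNP genes, -0.16 for 7 RNA polymerase I genes, -0.11 for 19 small subunit genes, -0.21 for 20 large subunit genes and -0.25 for 5 multifunctional nucleolar genes. With 6 libraries these medians were -0.37, -0.25, -0.26, -0.37 and -0.38. All 3 KO libraries lay below all controls (background 20.1%) in 5 of 8 snoRNP and 3 of 7 RNA polymerase I genes. They also did in 8 of 19 small subunit, 15 of 20 large subunit and 5 of 5 multifunctional nucleolar genes. After cyclic loess the counts were 4, 2, 4, 8 and 2 in the same order (background 13.3%). No test compared the roles, and their 5-library fold changes overlapped widely, from -0.56 for DDX10 to 0.11 for MPHOSPH10 within the small subunit genes alone. With 6 libraries the members ran from -0.62 for NOP16 to 0.03 for UTP20.

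**Figure D2:**
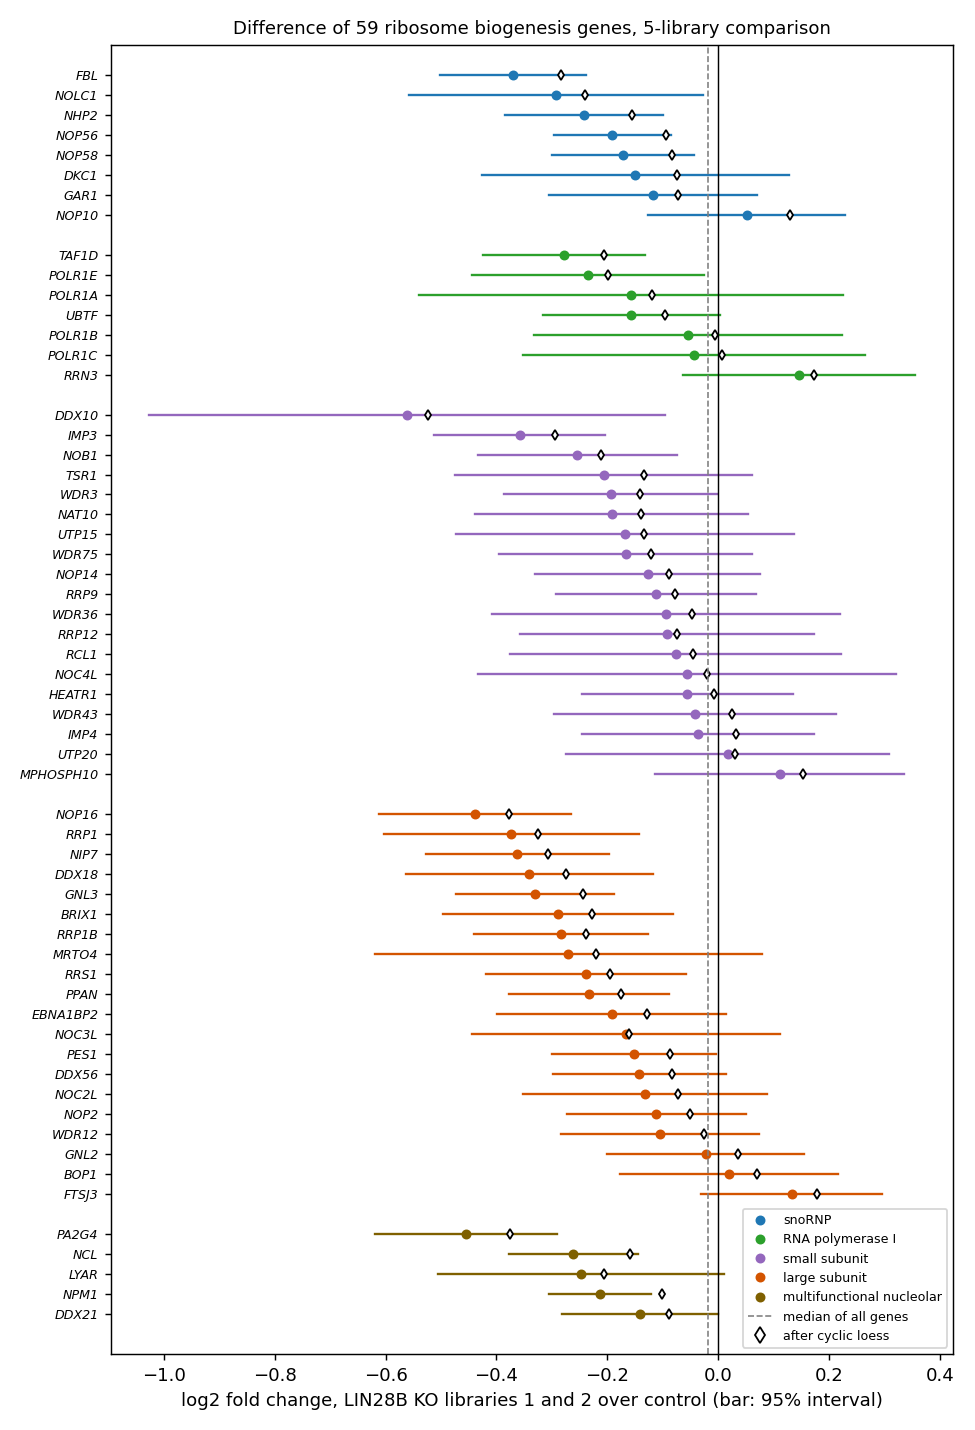
Log2 fold change of each gene in LIN28B KO libraries 1 and 2 over the 3 controls, by role (points, with 95% intervals as bars), its value after cyclic loess (open diamonds) and the median of all genes (dashed line). Intervals of 24 of the 59 genes (40.7%) lie wholly below 0 and none lies wholly above it, without adjustment for the number of genes. Of all genes tested, 19.8% had an unadjusted p under 0.05 in either direction, and no member was called by limma after adjustment. DDX10 has the widest interval and RRN3 the highest value, 0.15.

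When the 5-library comparison was limited to the 11308 protein-coding genes that GENCODE 29 lists under the same identifier, 8 of 58 members (13.8%) fell and 0 rose (background 3.02% of genes called lower), and 24 had an unadjusted p under 0.05 (background 22.8%). BOP1 was not among those genes. The 8 were FBL, IMP3, NOP16, GNL3, NIP7, NCL, NPM1 and PA2G4, which span 4 of the 5 roles and were 1.16-fold to 1.37-fold lower. With cyclic loess on the same genes 1 member was called lower (background 1.17%), PA2G4, at a log2 fold change of -0.37 (limma adjusted p = 0.0437), and 19 had an unadjusted p under 0.05 (background 20.9%). Leaving out any 1 of the 5 libraries ended all 8 calls, with a lowest adjusted p of 0.0601 to 0.114, while 32.8% to 41.4% of the members were lower at an unadjusted p under 0.05, against 11.6% to 14.0% of all genes in those fits. No gene at all was called lower in those smaller fits. With all 6 libraries and protein-coding genes only, 0 members were called.

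**Figure D3:**
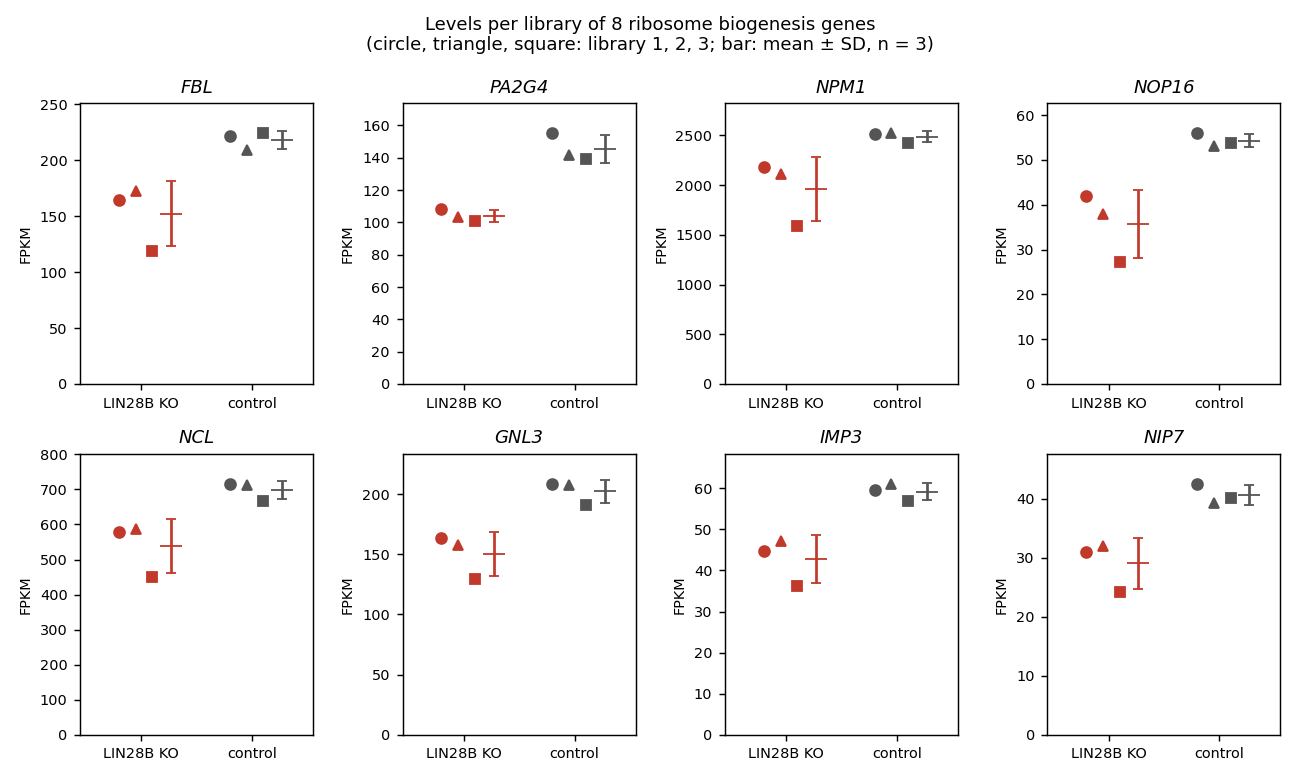
FPKM of the 8 genes called lower in the 5-library comparison of protein-coding genes, in LIN28B KO (red, left) and control (grey, right) libraries, with the mean and SD of each group (n = 3). Every KO library lies below every control in all 8 panels, and KO library 3 (square) is the lowest of the 6. The genes were chosen by the fit of KO libraries 1 and 2 against these controls, so the separation of those libraries follows from the choice. KO library 3 was not in that fit, and 57 of 59 members were below the control mean in it, as were 11745 of all 15803 genes tested. After cyclic loess all 3 KO libraries stay below all controls for FBL, IMP3, NOP16 and NIP7, but not for GNL3, NCL, NPM1 and PA2G4.

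Among the snoRNP proteins, FBL (fibrillarin, chr19:40325098-40337054 of GRCh37) is the methyltransferase of box C/D particles, which add 2′-O-methyl groups to ribosomal RNA. It stood at 165, 173 and 119 FPKM in LIN28B KO libraries 1 to 3, against 222, 209 and 224 FPKM in control. The means were 152 ± 29.1 FPKM in LIN28B KO and 218 ± 7.94 FPKM in control (SD, n = 3 each). Its 5-library log2 fold change was -0.37 (SE 0.05, limma adjusted p = 0.0622), and with 6 libraries it was -0.54 (SE 0.17, adjusted p = 0.304). NOP56 and NOP58, the scaffold pair of the same particle, lay closer to control. NOP56 was at 328, 340 and 233 FPKM in LIN28B KO and at 380, 390 and 375 FPKM in control (5-library log2 fold change -0.19, SE 0.04, limma adjusted p = 0.106, and -0.36 with 6 libraries). NOP58 was at 178, 184 and 137 FPKM in LIN28B KO and at 197, 202 and 212 FPKM in control (-0.17, SE 0.05, limma adjusted p = 0.167, and -0.30 with 6 libraries). The groups did not overlap for any of these 3 genes.

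H/ACA particles convert uridine to pseudouridine through DKC1 (dyskerin), which also stabilises telomerase RNA. DKC1 was at 96.9, 95.5 and 69.8 FPKM in LIN28B KO and at 111, 119 and 92.8 FPKM in control. Its groups overlapped, because control library 3 lay below KO libraries 1 and 2 (5-library log2 fold change -0.15, SE 0.11, limma adjusted p = 0.502, and -0.30 with 6 libraries). NHP2, a core H/ACA protein, was separated, at 163, 180 and 122 FPKM in LIN28B KO and 204, 200.4 and 203 FPKM in control (-0.24, SE 0.06, limma adjusted p = 0.116, and -0.40 with 6 libraries). NOP10, the smallest core protein, had a 5-library value of 0.05 and GAR1, which helps release the product, one of -0.12, against -0.11 and -0.37 with 6 libraries. NOLC1, a nucleolar chaperone of snoRNPs, had the lowest share of control in KO library 3 among all members, 45.4%. It stood at 27.1, 33.5 and 16.8 FPKM in LIN28B KO and at 38.2, 37.2 and 35.6 FPKM in control (-0.29, SE 0.11, limma adjusted p = 0.220, and -0.57 with 6 libraries).

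The summed level and the balance of subunits were also computed for each particle, over the members named here only. Any further protein of a particle was left out. The box C/D members (FBL, NOP56 and NOP58) summed to 671, 697 and 489 FPKM in LIN28B KO and to 799, 801 and 811 FPKM in control. The highest of them was 1.96 to 1.99 times the lowest in LIN28B KO and 1.77 to 1.93 times in control. The H/ACA members (DKC1, NHP2, NOP10 and GAR1) summed to 408, 433 and 297 FPKM in LIN28B KO and to 466, 474 and 440 FPKM in control. Their ratio of highest to lowest subunit ran from 6.27 to 8.36 in LIN28B KO and from 7.21 to 7.72 in control, so the KO range enclosed that of control.

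Of the 7 RNA polymerase I genes, 3 had all KO libraries below all controls (background 20.1%), POLR1E, UBTF and TAF1D. POLR1A, which encodes the largest catalytic subunit, was at 17.0, 19.2 and 18.2 FPKM in LIN28B KO and at 17.9, 19.0 and 24.4 FPKM in control (5-library log2 fold change -0.16, SE 0.15, limma adjusted p = 0.613, and -0.15 with 6 libraries). POLR1B, the other large catalytic subunit, was at 32.5, 27.9 and 20.9 FPKM in LIN28B KO and at 31.3, 34.3 and 28.6 FPKM in control (-0.05, SE 0.11, limma adjusted p = 0.821, and -0.23 with 6 libraries). Both pairs of groups overlapped. POLR1C, shared with RNA polymerase III, had a value of -0.04, and of -0.25 with 6 libraries. POLR1E, a subunit particular to this polymerase, was separated, at 17.8, 15.8 and 12.5 FPKM in LIN28B KO and at 19.4, 20.2 and 20.1 FPKM in control (-0.24, SE 0.08, limma adjusted p = 0.214, and -0.37 with 6 libraries).

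Factors that bring the polymerase to the ribosomal DNA promoter differed in the sign of their values. TAF1D, a subunit of the selectivity factor SL1, was at 77.0, 83.4 and 54.6 FPKM in LIN28B KO and at 95.2, 97.2 and 99.5 FPKM in control, with no overlap (5-library log2 fold change -0.28, SE 0.06, limma adjusted p = 0.0971, and -0.46 with 6 libraries). UBTF, the upstream binding factor, was at 45.8, 42.7 and 34.4 FPKM in LIN28B KO and at 48.6, 48.5 and 51.0 FPKM in control, also separated (-0.16, SE 0.06, limma adjusted p = 0.259, and -0.28 with 6 libraries). RRN3, the growth-regulated factor that makes the polymerase competent to start, had the highest 5-library value of all members. Its levels were 15.8, 14.4 and 10.5 FPKM in LIN28B KO and 13.5, 13.2 and 14.0 FPKM in control, so KO libraries 1 and 2 lay above all controls and library 3 below them. The 5-library log2 fold change was 0.15 (SE 0.08, limma adjusted p = 0.388, 95% interval -0.06 to 0.36), and the 6-library one -0.02.

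The small subunit processome assembles on the 5′ part of the precursor RNA around the U3 snoRNP. IMP3 (chr15:75931426-75941047), a U3-associated protein of the MPP10 complex, was at 44.7, 47.3 and 36.2 FPKM in LIN28B KO and at 59.5, 60.9 and 56.9 FPKM in control. All KO values lay below all controls, and library 3 was the lowest (5-library log2 fold change -0.36, SE 0.06, limma adjusted p = 0.0747, and -0.47 with 6 libraries). Its partners in that complex, IMP4 and MPHOSPH10, had values of -0.04 and 0.11 in the same comparison and of -0.28 and -0.17 with 6 libraries, and KO library 3 was the lowest for them as well. The ratio of the highest to the lowest subunit of this complex was 2.76 to 3.18 in LIN28B KO and 3.02 to 3.44 in control. RRP9, which binds the U3 RNA, had a value of -0.11, and of -0.33 with 6 libraries.

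HEATR1, a large scaffold of the processome that also takes part in ribosomal DNA transcription, was at 28.3, 25.5 and 30.6 FPKM in LIN28B KO and at 27.9, 27.1 and 28.9 FPKM in control. It was at 109.5% of the control mean in KO library 3, and UTP20, another very large processome protein, at 104%. The other 57 members were below their control mean there, as were 11745 of all 15803 genes tested. The 5-library values were -0.06 (SE 0.08, limma adjusted p = 0.729) for HEATR1 and 0.02 for UTP20, and the 6-library values were 0.01 and 0.03. WDR3, a β-propeller protein of the processome, was at 33.2, 30.3 and 24.8 FPKM in LIN28B KO and at 34.9, 36.0 and 38.2 FPKM in control (-0.19, SE 0.08, limma adjusted p = 0.250, and -0.31 with 6 libraries), with no overlap. Of the further repeat proteins of the processome, WDR75 and UTP15 each had a value of -0.17, WDR36 -0.09 and WDR43 -0.04. With 6 libraries these values were -0.31 for WDR75, -0.14 for UTP15, -0.26 for WDR36 and -0.14 for WDR43.

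Other small subunit factors act in the processome or in later steps of 40S maturation. DDX10, an RNA helicase, had the lowest value of all members in the 5-library comparison and also the largest SE there. It was at 13.6, 17.4 and 15.1 FPKM in LIN28B KO and at 27.7, 19.3 and 22.6 FPKM in control (5-library log2 fold change -0.56, SE 0.19, limma adjusted p = 0.194, and -0.57 with 6 libraries). The groups did not overlap, though KO library 2 and control library 2 lay within 2 FPKM of each other. NOB1, the endonuclease that makes the mature 3′ end of 18S ribosomal RNA, was separated, at 21.9, 20.8 and 16.4 FPKM in LIN28B KO and 24.8, 25.3 and 26.7 FPKM in control (-0.25, SE 0.07, limma adjusted p = 0.154, and -0.38 with 6 libraries). NAT10, which acetylates 18S ribosomal RNA, was nearly level across the KO libraries, at 31.9, 33.1 and 32.4 FPKM, against 33.6, 41.0 and 37.4 FPKM in control (-0.19, SE 0.10, limma adjusted p = 0.343, and -0.19 with 6 libraries). TSR1, of late cytoplasmic 40S particles, had a value of -0.21, the processome factors NOP14 and NOC4L -0.13 and -0.06, the export factor RRP12 -0.09 and RCL1 -0.08. With 6 libraries these 5 ran from -0.31 for TSR1 to -0.18 for RCL1.

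In the large subunit group, 10 of 20 members had an unadjusted p under 0.05 in the 5-library comparison (background 19.8% in either direction), all of them lower in LIN28B KO, and 8 with 6 libraries (background 13.7%). NOP16 (chr5:175810949-175815976), a pre-60S protein, was at 42.0, 38.0 and 27.2 FPKM in LIN28B KO and at 55.9, 53.1 and 53.8 FPKM in control. LIN28B KO libraries 1 and 2 held 73.6% of the control mean and library 3 50.1% (5-library log2 fold change -0.44, SE 0.07, limma adjusted p = 0.0681, and -0.62 with 6 libraries). After cyclic loess the values of all KO libraries still lay below those of all controls. GNL3 (nucleostemin, chr3:52715172-52728508), a GTP-binding protein abundant in stem and tumour cells, was at 164, 158 and 130 FPKM in LIN28B KO and at 208, 208 and 191 FPKM in control (-0.33, SE 0.06, limma adjusted p = 0.0747, and -0.43 with 6 libraries). NIP7 (chr16:69373333-69377014), needed for processing of the precursor RNA, was at 30.9, 32.0 and 24.1 FPKM in LIN28B KO and at 42.4, 39.2 and 40.1 FPKM in control (-0.36, SE 0.07, limma adjusted p = 0.0787, and -0.49 with 6 libraries).

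RRP1 and RRP1B are related proteins that share a yeast counterpart in 60S assembly, and both were separated between the groups. RRP1 was at 22.2, 25.6 and 19.5 FPKM in LIN28B KO and at 32.5, 31.0 and 29.4 FPKM in control (5-library log2 fold change -0.37, SE 0.09, limma adjusted p = 0.125, and -0.47 with 6 libraries). RRP1B was at 22.7, 23.4 and 16.1 FPKM in LIN28B KO and at 28.5, 28.0 and 27.9 FPKM in control (-0.28, SE 0.06, limma adjusted p = 0.106, and -0.45 with 6 libraries). Further pre-60S factors with values at or under -0.23 were the helicase DDX18 (-0.34), BRIX1 (-0.29), MRTO4 (-0.27), RRS1 (-0.24), which helps to place the 5S particle, and PPAN (-0.23). PPAN shares its locus with the readthrough transcript PPAN-P2RY11, so its level is uncertain. EBNA1BP2 had a value of -0.19, NOC3L -0.17, the helicase DDX56 -0.14, NOC2L -0.13 and the GTP-binding protein GNL2 -0.02. With 6 libraries these 10 ran from -0.45 for RRS1 to -0.14 for GNL2.

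PES1, BOP1 and WDR12 form the PeBoW complex, which is needed for maturation of 28S and 5.8S ribosomal RNA. PES1 was at 53.6, 54.8 and 38.6 FPKM in LIN28B KO and at 57.6, 61.1 and 61.9 FPKM in control, with no overlap (5-library log2 fold change -0.15, SE 0.06, limma adjusted p = 0.246, and -0.31 with 6 libraries). BOP1 was at 31.2, 30.1 and 17.3 FPKM in LIN28B KO and at 28.3, 30.3 and 32.1 FPKM in control (0.02, SE 0.08, limma adjusted p = 0.912, and -0.25 with 6 libraries), and was low in KO library 3 alone. WDR12 had a value of -0.10, and of -0.42 with 6 libraries, and stood at 48.4% of the control mean in KO library 3. NOP2, which methylates 28S ribosomal RNA, was at 45.7, 45.6 and 30.3 FPKM in LIN28B KO and at 47.3, 52.0 and 48.9 FPKM in control (-0.11, SE 0.06, limma adjusted p = 0.395, and -0.31 with 6 libraries). FTSJ3, another ribosomal RNA methyltransferase, lay above all controls in KO libraries 1 and 2, at 28.3 and 28.1 FPKM, but not in library 3, at 16.8 FPKM, against 26.2, 26.0 and 24.8 FPKM in control (0.13, SE 0.06, limma adjusted p = 0.326, and -0.11 with 6 libraries).

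In all 5 genes of multifunctional nucleolar proteins, every KO library lay below every control as deposited (background 20.1%). After cyclic loess this held in 2 of 5 (background 13.3%). NPM1 (nucleophosmin, chr5:170814120-170838141), a histone chaperone and ribosome export factor, was at 2179, 2112 and 1591 FPKM in LIN28B KO and at 2518, 2519 and 2424 FPKM in control (5-library log2 fold change -0.21, SE 0.04, limma adjusted p = 0.0747, and -0.36 with 6 libraries). NPM1 has processed pseudogenes that can share its reads. NCL (nucleolin, chr2:232318242-232348352), which binds nascent precursor RNA, was at 577, 587 and 451 FPKM in LIN28B KO and at 714, 713 and 667 FPKM in control (-0.26, SE 0.05, limma adjusted p = 0.0776, and -0.38 with 6 libraries). For both genes the fold change after cyclic loess was smaller, at -0.10 for NPM1 and -0.16 for NCL, and KO library 3 then lay level with the control mean, at log2 ratios of 0.06 and 0.02.

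PA2G4 (EBP1, chr12:56498103-56507691), a growth-regulated protein that binds ERBB3 and pre-ribosomal particles, had the lowest value in this role in both comparisons. It was at 108, 103 and 101 FPKM in LIN28B KO and at 155, 141 and 139 FPKM in control, with means of 104 ± 3.64 FPKM and 145 ± 8.58 FPKM (SD, n = 3 each). The 5-library log2 fold change was -0.46 (SE 0.07, limma adjusted p = 0.0623) and the 6-library one -0.48 (SE 0.12, adjusted p = 0.264), the lowest adjusted p of any member with 6 libraries. After cyclic loess its log2 ratio was 0.05 in KO library 3. DDX21, a helicase of RNA polymerase I and II transcription, was at 33.4, 33.0 and 25.1 FPKM in LIN28B KO and at 36.6, 36.9 and 36.4 FPKM in control (-0.14, SE 0.06, limma adjusted p = 0.254, and -0.27 with 6 libraries). LYAR, a nucleolar zinc finger protein of growing cells, was at 18.0, 22.1 and 13.2 FPKM in LIN28B KO and at 23.8, 23.6 and 23.9 FPKM in control (-0.25, SE 0.10, limma adjusted p = 0.267, and -0.44 with 6 libraries).

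Transcript length moved with the members' values in KO library 3. Over the 58 members with a protein-coding transcript in GENCODE 29, the Spearman correlation of the log2 ratio to the control mean with the longest coding transcript was 0.48 in KO library 3 and 0.18 for the mean of KO libraries 1 and 2. Over 11378 coding genes the same correlations were 0.29 and 0.10; the points share their libraries, and the values are descriptions. With the control level, the correlation was -0.28 in KO library 3 and -0.33 for the mean of KO libraries 1 and 2 over the members, and -0.42 and -0.22 over coding genes. The 20 members with the shortest transcripts stood at a median of 60.7% of the control mean in KO library 3, the middle 19 at 65.1% and the 19 longest at 69.7%. In KO libraries 1 and 2 the medians were 84.8%, 89.9% and 88.8%. HEATR1 and UTP20, the members level with control in KO library 3, have transcripts of 8447 and 9025 bases, and WDR12, at 8100 bases, was among the lowest there. The part of length and level in the members' values was not tested.

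Of 120 further genes of ribosome biogenesis (processome, pre-60S, exosome, RNase MRP and polymerase I factors), 119 were found and tested. None was called in either comparison over all genes. In the 6-library one 19 (16.0%) had an unadjusted p under 0.05, and in the 5-library one 23 (19.3%), near the 13.7% and 19.8% of all genes tested. Their median was -0.26 with 6 libraries and -0.11 with 5, against -0.13 and -0.02 for all genes tested. Negative fold changes numbered 110 of 119 with 6 libraries, against 10513 of all 15803 genes. With 5 libraries they numbered 93 of 119, against 8132 of all 15336 genes. After cyclic loess 80 of 119 were negative with 6 libraries (7769 of all 15803) and 79 with 5 (7694 of all 15336), with medians of -0.08 and -0.07. Among 116 in the protein-coding comparison 2 (1.72%) fell and 0 rose, a share below the 3.02% of all genes called lower there. Both encode subunits of RNase P and RNase MRP, enzymes that cut precursor transfer RNA and ribosomal RNA. With cyclic loess on those genes 0 were called, while 16 (13.8%) had an unadjusted p under 0.05, against 20.9% of all genes. RPP30 was at 15.5, 14.9 and 14.6 FPKM in LIN28B KO and at 20.4, 21.3 and 21.1 FPKM in control (1.36-fold lower, limma adjusted p = 0.0368). POP7 was at 27.2, 29.3 and 18.7 FPKM in LIN28B KO and at 36.3, 38.2 and 39.2 FPKM in control (1.34-fold lower, limma adjusted p = 0.0382). The exosome subunit EXOSC4 followed in order of p among lower genes, with a 5-library value of -0.28 (SE 0.06, limma adjusted p = 0.103). In the other direction, the smallest p belonged to MDN1, the giant ATPase that strips factors from pre-60S particles (0.34, SE 0.09, limma adjusted p = 0.139), then to SDAD1 (0.34, limma adjusted p = 0.140) and AATF (0.22, limma adjusted p = 0.312). All 3 were below their control mean in KO library 3, and with 6 libraries their values were 0.16 for MDN1, 0.14 for SDAD1 and -0.08 for AATF, against -0.46 for RPP30, -0.61 for POP7 and -0.59 for EXOSC4.

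Promoters of the members were searched for 3 short motifs that played no part in their choice. RefSeq promoters (GRCh38.p14, 250 bases before to 50 after the start) were matched by symbol for 50 of the 59 members, with 61 promoters in all. The E-box CACGTG, which reads the same on both strands, occurred in 19 of 50 members (38%), against 10.9% of 15843 coding genes, and in 32.8% of the members' promoters, against 8.34% of coding and 7.26% of all 35116 promoters. The ETS core CCGGAAG, on either strand, occurred in 40% of the members and 16.5% of coding genes. These are 36.1% of the members' promoters, 12.8% of coding and 10.3% of all promoters. The NRF1 motif, with 10 bases and searched on both strands, occurred in 22% of the members and 9.67% of coding genes, or 19.7% of the members' promoters, 7.39% of coding and 5.78% of all promoters. Matches of different motifs overlapped in 1 member promoter. Members' promoters had a median GC content of 64.3%, against 62.3% for coding genes, and among coding genes with at least the members' median GC the E-box was in 11.8%, the ETS core in 17.1% and the NRF1 motif in 12.8%.

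Most E-boxes of the members lay at the start: 18 of 22 in member promoters (81.8%) began within 50 bases of it, against 36.8% of those in coding genes. Most of those 18 began after the start, at 6 bases for FBL and GNL3 and at 13 bases for PES1, and are not shown. Stretches of 60 bases upstream of the start are shown for DDX21, LYAR, NAT10, NOP10 and UTP20, all with an E-box within 64 bases before it, to show the bases around it. They are written 5′ to 3′ on the strand of the gene, with the E-box in capitals.
DDX21, chr10:68956587-68956646, plus strand, E-box 31 bases before the start: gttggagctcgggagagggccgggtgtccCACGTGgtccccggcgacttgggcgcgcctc
LYAR, chr4:4290053-4290112, minus strand, 64 bases before: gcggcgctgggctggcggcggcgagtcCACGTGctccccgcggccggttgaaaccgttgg
NAT10, chr11:34105569-34105628, plus strand, 15 bases before: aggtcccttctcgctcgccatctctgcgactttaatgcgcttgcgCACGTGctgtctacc
NOP10, chr15:34343137-34343196, minus strand, 11 bases before: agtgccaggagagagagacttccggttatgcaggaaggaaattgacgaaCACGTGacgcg
UTP20, chr12:101280045-101280104, plus strand, 10 bases before: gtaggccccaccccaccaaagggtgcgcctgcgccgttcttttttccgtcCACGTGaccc
Genes with and without the motif had 5-library medians of -0.13 (19 members) and -0.19 (31 members), and 6-library medians of -0.28 and -0.31. For the ETS core the 5-library medians were -0.15 with and -0.16 without it, and for the NRF1 motif -0.21 and -0.15. With 6 libraries these were -0.31 and -0.31 for the ETS core and -0.36 and -0.31 for NRF1. Among the 5 shown, the values ran from -0.25 for LYAR to 0.05 for NOP10. A match is a run of letters and not a measured binding site.

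**Figure D4:**
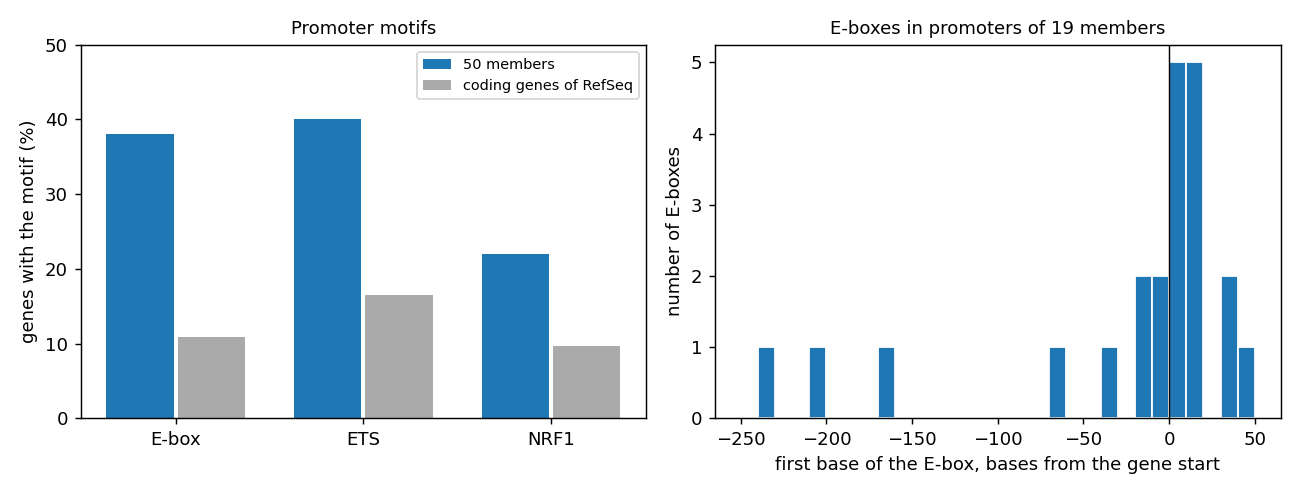
Left, share of 50 members and of 15843 RefSeq coding genes with each promoter motif: 38% and 10.9% for the E-box, 40% and 16.5% for ETS, 22% and 9.67% for NRF1. Right, position of the 22 E-boxes of 19 members in bases from the gene start (bins of 10), with 18 within 50 bases of it.

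Sites for let-7, the microRNA family that LIN28B restrains, were sought in the members as well. The mature sequences of the family in RefSeq (GRCh38.p14) share the seed GAGGUAG at bases 2 to 8, given in capitals for a pair of them to show what a site must match.
hsa-let-7a-5p: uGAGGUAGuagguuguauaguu
hsa-let-7g-5p: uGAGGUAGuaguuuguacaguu
Matches to it (CTACCTC, or TACCTCA with its A opposite base 1) were looked for on the sense strand of the longest 3′ UTR of each gene in GENCODE 29. They occurred in 7 of 58 members (12.1%), against 18.0% of 11190 coding genes, and the members' UTRs were also shorter, with a median of 752 bases against 1367. The members were DKC1, NOP14, POLR1C, RRN3, RRP1B, UTP15 and WDR3. WDR3 alone had the full 8-base match, with 2 weaker sites elsewhere in its UTR, and RRP1B had the lowest 5-library value of the 7. Both are shown with the match in capitals (GRCh38, plus strand).
WDR3, chr1:117965511-117965540: cttccatccatcaatggcttCTACCTCAga
RRP1B, chr21:43694029-43694058: ccggtttccctccctgttttcCTACCTCta
Members with a site had a 5-library median of -0.15 and those without one -0.17, while for coding genes these medians were -0.03 and -0.04. With 6 libraries they were -0.28 and -0.33 for the members and -0.15 and -0.17 for coding genes. RRN3, the highest member in the 5-library comparison, was also among those with a site.

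Several members double as hosts of snoRNAs, whose guide sequences lie within their introns. In the files' own loci (GRCh37), 10 of 59 members (16.9%) held at least 1 annotated snoRNA row, against 4.36% of 11308 coding genes: NOP56, NOP58, DKC1, TAF1D, WDR43, UTP20, TSR1, PPAN, GNL3 and NCL. Of the 35 rows, 33 were listed at 0 in every library, as were 1316 of all 1337 snoRNA rows. A 0 there need not mean that the RNA is absent, so the snoRNAs themselves could not be compared. The hosts had a 5-library median of -0.20 and the other members -0.16, and with 6 libraries -0.34 and -0.31. The strand of the libraries is not given in the sources used here, and IMP3, NOP16, GNL3, NIP7 and PA2G4, among the 8 called lower, overlap other annotated genes, whose reads cannot be told apart from theirs in these values.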

How the data were processed

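Total RNA of 3 LIN28B KO and 3 control libraries had been sequenced. The submitters' processing notes name GRCh37 with TopHat2, HTSeq and cutadapt, without version or role. Per the file headers, the authors deposited FPKM for each gene together with 2 bounds. Of 57886 genes, 25 with a failed estimate were left out, and rows of 108 genes listed more than once were summed. Deposited bounds lay 2.46% to 26.6% either side of the members' values (median 8.17%), and what they cover is not given. For NOC2L they lay 5.80% either side of 40.0 FPKM in KO library 1 and 26.6% either side of 35.5 FPKM in KO library 3. They may therefore hold more than counting error.

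Values were taken to log2(FPKM + 0.5), and genes reaching 1 FPKM in 3 or more libraries were tested two-sided with limma 3.58.1 in R 4.3.3, using a variance trend. Benjamini-Hochberg adjustment ran over all genes tested, with a threshold of 0.05. The members, lists, roles and the 5-library comparison were chosen with earlier results of these data known. Given in full were the 5 genes of each role with the smallest 5-library p, the 2 largest rises and core genes such as POLR1A, BOP1 and DKC1 whatever their p; of the further list, the 3 smallest p in each direction. The name MKI67IP of that list was not found. On simulated data, 16%, 46%, 88% and 86% of genes changed by log2 0.5, 1, 2 and 3 were recovered in the 5-library comparison (15336 genes), and 0%, 30%, 78% and 86% in the 6-library one (15803 genes). Changes as small as the members' 5-library median of -0.17 were not simulated. The simulated libraries also held no shift shared by all genes of a library. Other settings were pseudocounts, filters, scalings, protein-coding genes only, the replicate number as a block and leaving out each library.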

Additional observations from a re-analysis of the deposited data

How the results depend on the processing

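The 6-library median of the members (-0.31) was -0.10 after cyclic loess and -0.40 to -0.17 when 1 library was left out. The 5-library median (-0.17) was -0.11 after quantile normalization, -0.10 after cyclic loess (also on protein-coding genes only), -0.14 with size factors and -0.19 to -0.15 when 1 library was left out. It stayed negative in every setting run. No member was called in any setting with all 6 libraries. With 5 libraries, 8 were called lower among protein-coding genes only and 1 there with cyclic loess, a setting chosen after seeing the data, as was leaving out each library in turn, which gave 0. No single value is known more closely than its deposited bounds.

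Whether the replicate numbers pair the libraries is unknown. The deviations of same-numbered libraries from their group means correlated at -0.02, 0.04 and -0.03. With 3 libraries per group these values cannot settle it. With the replicate number as a block the 5-library median was -0.15 (-0.10 with cyclic loess), 0 members were called, and calls over all genes numbered 1 higher and 4 lower, against 23 and 41 without the block (6 libraries: 11 and 2, against 10 and 5).

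Of 511 values of the 32 genes given in full with 6 libraries, 498 kept direction and call and 13 changed sign; of 510 with 5 libraries, 494 kept both, 9 gained a call and 7 changed sign. None of the genes that changed sign was called, and the cause was not tested. With 6 libraries FTSJ3 was 0.0193 after quantile normalization, 0.0668 after cyclic loess and 0.0311 with size factors, RRN3 0.0740, 0.128 and 0.120, and after cyclic loess NAT10 was 0.000773 and POLR1A 0.0140. When 1 of 6 libraries was left out, BOP1 ran from -0.40 to 0.0204, FTSJ3 from -0.24 to 0.13, RRN3 from -0.14 to 0.15 and HEATR1 from -0.0553 to 0.0733. When 1 of 5 was left out, BOP1 ran from -0.0264 to 0.0643, POLR1B from -0.16 to 0.0537 and HEATR1 from -0.13 to 0.0170. With cyclic loess and the block, HEATR1 was 0.0131 and POLR1A 0.0101.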
